A study of Mus musculus with 2 samples.

Results

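The BAP1 deubiquitinase complex was followed through 10 genes: *Bap1* itself, *Asxl1* and *Asxl2*, *Foxk1* and *Foxk2*, *Hcfc1*, *Ogt*, *Mbd5*, *Mbd6* and *Kdm1b*. They were chosen by name as the enzyme and its described partners, out of 31053 genes in the count tables, and all 10 had UMIs (unique molecular identifiers, 1 per captured RNA molecule) in both libraries. The cells were fibro/adipogenic progenitors (FAPs), mesenchymal cells that lie between the muscle fibers. They came from limb muscle of 3-week-old C57BL/6 mice and were sorted as live cells negative for CD45, CD31 and Vcam1 and positive for Sca1. One library was made from *Bap1*f/f mice (labelled *Bap1* WT, without Cre), and 1 from *Prx1-Cre*;*Bap1*f/f mice (labelled *Bap1* cKO). Both genotypes carry the floxed alleles. *Prx1-Cre* acts in the limb mesenchyme as a whole, from which FAPs derive, so *Bap1* is targeted in other mesenchymal cells of the limb too. How many mice went into a library is not given in the sources used here.

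BAP1 is a ubiquitin carboxy-terminal hydrolase that removes ubiquitin from a lysine in the tail of histone H2A, the mark that Polycomb repressive complex 1 writes. It is active only when bound to an ASXL protein, and the ASXL proteins also carry the surfaces that other subunits bind. FOXK1 and FOXK2 bring the complex to DNA, HCFC1 is a large transcriptional coregulator that BAP1 binds, OGT puts N-acetylglucosamine on serine and threonine of nuclear proteins including HCFC1, MBD5 and MBD6 bind the complex through the ASXL proteins, and KDM1B is a demethylase of histone H3 lysine 4.

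Each gene was measured as the sum of its UMIs over the cells of a library, per 1000000 UMIs of those cells (CPM), and as the share of cells with a UMI. Intervals are exact 95% intervals (Poisson for levels and ratios, Clopper-Pearson for shares) and cover counting error only. With 1 library per genotype there is no replicate, no p-value is given, and genotype and library cannot be told apart. Levels are compared within a gene, never between genes, because a 3′ library does not capture every gene equally well. In such sums, fewer cells with a transcript and less of it per cell cannot be told apart, which the shares of cells address only in part.

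The WT-labelled library held 4103 cells with 51015705 UMIs, and the cKO-labelled library held 4378 cells with 49540066 UMIs. The median cell had 12232 and 11018 UMIs. FAP genes were present in both (*Pdgfra* 347 and 298 CPM), while *Ptprc*, *Adgre1*, *Cd3e*, *Pax7*, *Myf5* and *Myod1* were at 0 in both. Summed marker levels of the other cell types were low, at 4.25 and 6.46 CPM for 5 immune genes, 2.45 and 2.32 CPM for 3 Schwann cell genes, 18.3 and 13.3 CPM for 3 mural genes, 42.0 and 25.3 CPM for 4 myofiber genes and 32.0 and 20.0 CPM for 2 erythroid genes. The 4 endothelial genes summed to 91.8 and 116 CPM, mostly *Tek*, and of the 4 muscle stem cell genes *Vcam1* alone was found, at 37.6 and 20.5 CPM. The 5 FAP genes together took 38465 CPM in the WT-labelled library and 24996 CPM in the cKO-labelled library, mostly *Col1a1* (21267 and 9859 CPM). The part of these differences in the ratios of the members was not tested beyond the other scaling given below. Over the 14729 genes with 20 or more UMIs, the median log2 ratio of CPM, cKO over WT, was 0.096, and ratios are best read against that shift. Of all cell barcodes, 5 occurred in both libraries.

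*Bap1* is the gene targeted in the cKO mice, and its mRNA was not lower in the cKO-labelled library. It was counted with 897 UMIs, or 17.6 CPM (interval 16.5 to 18.8), in the WT-labelled library and with 1072 UMIs, or 21.6 CPM (20.4 to 23.0), in the cKO-labelled library. The ratio was 1.23 (1.13 to 1.35), a log2 ratio of 0.30. A 3′ count does not check the labels if the deleted exons lie outside the counted end. The position of the targeted intron is given here. *Bap1* lies at chr14:31251450-31259944 (GRCm38, plus strand) and its transcript Bap1-201 has 17 exons and 3460 bases in the GENCODE annotation. By the study's methods the targeting cassette sits in the fifth intron, and Cre removes exons so that the reading frame is lost; the exons removed are not named in the sources used here. The fifth intron, of 457 bases, separates exon 5 (chr14:31253456-31253575) from exon 6 (chr14:31254033-31254094). The spliced reference across that point is shown because it marks the intron of the cassette, with 30 bases of exon 5 in lower case and 30 of exon 6 in capitals:
Bap1 exon 5 to exon 6: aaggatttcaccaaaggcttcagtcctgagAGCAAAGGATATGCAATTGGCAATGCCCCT
This junction lies 2917 bases from the 3′ end of the RNA. Of the 2184 coding bases, 375 precede it and 1809 follow it. The last exon alone holds 1239 bases, of which 131 are coding. A 3′ library reads the end of the RNA, so a transcript that lost exons near the junction would still be counted as *Bap1* if it was made and kept. How far the deletion reaches downstream is not given, and whether such a transcript was counted here was not tested. Directions are therefore those between the libraries by their labels.

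The next set of values covers the subunits closest to BAP1. *Asxl1*, which encodes an activating partner, had 19.4 CPM (990 UMIs) in the WT-labelled library and 22.4 CPM (1110 UMIs) in the cKO-labelled library, a ratio of 1.15 (1.06 to 1.26). Its paralog *Asxl2* had 26.0 CPM (1326 UMIs) and 26.6 CPM (1318 UMIs), a ratio of 1.02 (0.948 to 1.11). The interval for *Asxl2* includes 1, whereas that for *Asxl1* does not. *Mbd5* was the member with the greatest ratio. It was counted at 15.8 CPM (808 UMIs, interval 14.8 to 17.0) and 23.4 CPM (1160 UMIs, 22.1 to 24.8), a ratio of 1.48 (1.35 to 1.62). *Mbd6*, its paralog, was counted at 13.8 CPM (704 UMIs) and 16.4 CPM (813 UMIs), a ratio of 1.19 (1.07 to 1.32). The intervals of the *Mbd5* and *Mbd6* ratios do not overlap. *Mbd5* spans chr2:48949508-49325405 on the plus strand and overlaps the annotated genes *Gm13509* and *Gm13510* on the same strand, so reads in the shared stretch may not be *Mbd5* alone. No other member overlaps a gene on its own strand.

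The DNA-binding and cofactor subunits follow. *Foxk1* had 11.7 CPM (596 UMIs) in the WT-labelled library and 11.2 CPM (556 UMIs) in the cKO-labelled library, with a ratio of 0.961 (0.854 to 1.08). *Foxk2* had 19.8 CPM (1010 UMIs) and 23.5 CPM (1165 UMIs), with a ratio of 1.19 (1.09 to 1.29). The intervals of the 2 forkhead genes do not overlap, and *Foxk2* alone was higher beyond counting error. *Hcfc1* had 31.5 CPM (1607 UMIs) and 34.3 CPM (1701 UMIs), with a ratio of 1.09 (1.02 to 1.17). *Ogt* had 67.2 CPM (3426 UMIs) and 64.6 CPM (3199 UMIs), with a ratio of 0.962 (0.916 to 1.01). Both *Hcfc1* and *Ogt* lie on the X chromosome. *Xist*, the RNA of the inactive X, was at 791 and 702 CPM, with a UMI in 93.5% and 92.4% of cells, and 4 Y-linked genes had 2 and 0 UMIs in all. Both libraries thus held *Xist* and almost no Y-linked transcripts, whereas the methods of the study state male mice for its transcriptomic work, without naming these libraries. *Kdm1b* was the least counted member, with 6.57 CPM (335 UMIs) and 7.09 CPM (351 UMIs), and its ratio of 1.08 (0.926 to 1.26) includes 1.

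**Figure D1:**
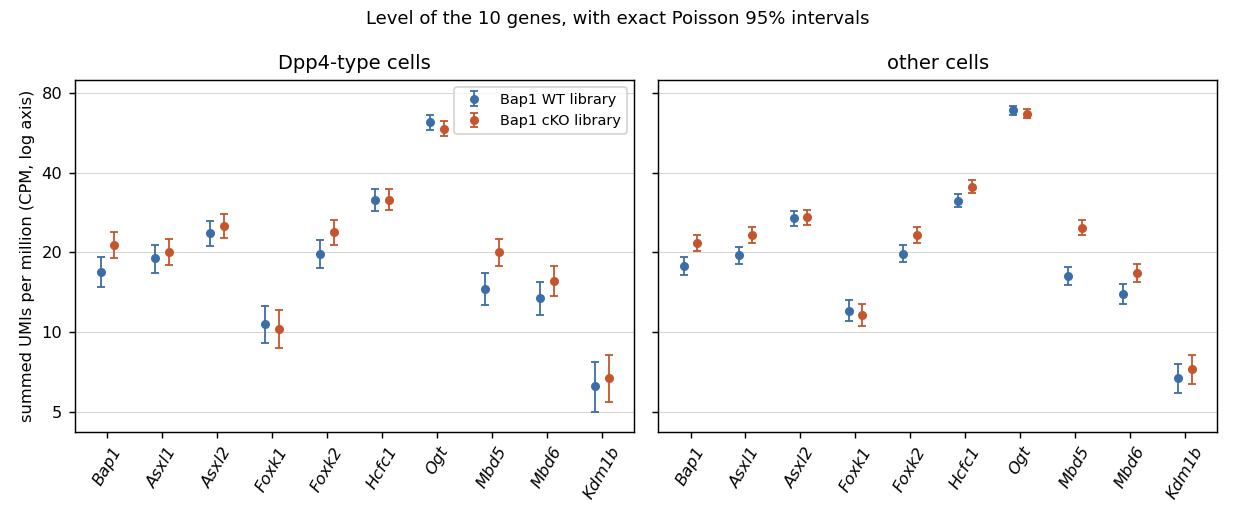
Level of each of the 10 genes in CPM (log axis) in Dpp4-type cells (left) and in the other cells (right), with blue points for the WT-labelled library, orange points for the cKO-labelled library and bars for exact Poisson 95% intervals. In the other cells Bap1, Asxl1, Foxk2, Hcfc1, Mbd5 and Mbd6 show separate intervals for the libraries (Mbd5 farthest apart, at 16.3 against 24.8 CPM), while Ogt, Foxk1, Asxl2 and Kdm1b overlap in both groups of cells.

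Against all genes, the members stood close to the common shift. Over all cells 8 of the 10 were higher in the cKO-labelled library, and so were 60.7% of the 14729 genes with 20 or more UMIs. Counting intervals lay above 1 for 6 members (*Bap1*, *Asxl1*, *Foxk2*, *Hcfc1*, *Mbd5* and *Mbd6*), as they did for 40.9% of those genes and for 45% of the 6752 genes within the members' range of UMI counts. No member had an interval below 1, against 22.1% of genes. The members' median log2 ratio was 0.17, inside the middle range of all genes (25th to 75th percentile −0.18 to 0.32). No member was past 1.5-fold, where 12.8% of genes were higher and 10.8% lower. Among the 6752 genes of like UMI count these shares were 6.06% and 5.72%. At 1.2-fold, a limit added after the data were seen, *Bap1* and *Mbd5* were higher, as were 29.6% of genes. *Mbd5* ranked at the 86.6th percentile of all genes and at the 93.5th among genes of like UMI count. The members' ratios thus lay within the range usual for genes of these libraries, with *Mbd5* toward its upper edge.

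When the libraries were scaled with TMM factors, which set the median of all genes near 0 (−0.0017), 7 of the 10 members were above 1 and *Asxl2* turned to 0.956 (0.886 to 1.03). *Bap1* then had a ratio of 1.15 (1.05 to 1.26), *Mbd5* 1.38 (1.26 to 1.51), *Foxk2* 1.11 (1.02 to 1.21) and *Mbd6* 1.11 (1.003 to 1.23). The intervals of *Asxl1*, 1.08 (0.989 to 1.18), and *Hcfc1*, 1.02 (0.951 to 1.09), then included 1. *Ogt* came to 0.898 (0.856 to 0.943) and lay below 1 beyond counting error under this scaling. The directions of *Bap1*, *Mbd5*, *Foxk2* and *Mbd6* were thus the same under both scalings, and those of *Asxl1* and *Hcfc1* were too, at sizes within counting error.

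The cells were split by the summed level of *Pi16*, *Sema3c*, *Anxa3* and *Efemp1*, at 25 or more UMIs per 10000, into Dpp4-type cells and other cells. *Dpp4*, which took no part in the split, was at 298 CPM in Dpp4-type and 56.5 CPM in other cells of the WT-labelled library, and at 268 and 39.5 CPM in the cKO-labelled library. Dpp4-type cells numbered 1050 and 1251, and other cells 3053 and 3127. These numbers are not compared, since the 4 genes themselves differ between the libraries (*Pi16* 1243 and 863 CPM over all cells).

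In Dpp4-type cells *Bap1* was at 16.9 CPM (239 UMIs) in the WT-labelled library and 21.3 CPM (315 UMIs) in the cKO-labelled library, a ratio of 1.26 (1.06 to 1.5). *Mbd5* was at 14.6 and 20.0 CPM, a ratio of 1.37 (1.15 to 1.65), and *Foxk2* at 19.8 and 23.8 CPM, a ratio of 1.21 (1.03 to 1.42). These were the 3 members with an interval above 1, against 29.8% of 12517 genes. Under TMM scaling *Foxk2*, at 1.15 (0.976 to 1.35), included 1 and *Ogt*, at 0.900 (0.818 to 0.989), was below 1. The other members had intervals that included 1, from *Ogt* at 0.947 (0.861 to 1.04) to *Mbd6* at 1.16 (0.955 to 1.42), and *Hcfc1* was level at 31.7 CPM in both libraries. No member was past 1.5-fold in Dpp4-type cells, where 9.76% of genes were higher and 10.2% lower. Among genes of like UMI count these shares were 5.76% and 6.64%.

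In the other cells *Bap1* was at 17.8 CPM (658 UMIs) and 21.8 CPM (757 UMIs), a ratio of 1.22 (1.10 to 1.36). *Mbd5* was at 16.3 CPM (602 UMIs) and 24.8 CPM (864 UMIs), a ratio of 1.52 (1.37 to 1.69). It was the 1 member past 1.5-fold, against 13.8% of 14271 genes higher and 10.2% lower. Among genes of like UMI count these shares were 7.32% and 5.92%. The ratios of *Asxl1* at 1.19 (1.08 to 1.32), *Foxk2* at 1.18 (1.07 to 1.31), *Hcfc1* at 1.13 (1.04 to 1.22) and *Mbd6* at 1.2 (1.07 to 1.36) were also above 1 beyond counting error, which makes 6 members against 40.1% of genes. Under TMM scaling 3 of these 6 lost that call, *Foxk2* at 1.09 (0.989 to 1.21), *Hcfc1* at 1.05 (0.964 to 1.13) and *Mbd6* at 1.11 (0.988 to 1.26), while *Ogt* was below 1 at 0.899 (0.850 to 0.952). *Asxl2*, *Foxk1*, *Ogt* and *Kdm1b* had intervals that included 1. By point values alone, 8 members were above 1 in both Dpp4-type and other cells, as were 48.4% of 12444 genes, though *Hcfc1* was level in Dpp4-type cells. *Foxk1* and *Ogt* were below 1 in both, as were 27.2%. In Dpp4-type cells the number above 1 was 6 when each cell weighed the same and 7 under TMM scaling, without shared barcodes, without the deepest cells and at a gate of 50.

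Whether the difference between the libraries depended on the kind of cell was asked for each member by the difference of its log2 ratios, Dpp4-type minus other cells. The greatest differences were −0.17 (−0.45 to 0.10) for *Asxl1*, −0.17 (−0.39 to 0.05) for *Hcfc1* and −0.15 (−0.45 to 0.15) for *Mbd5*. For *Bap1* the difference was 0.05 (−0.24 to 0.33). All 10 intervals included 0, which at these counts leaves room for differences of the sizes the intervals span.

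**Figure D2:**
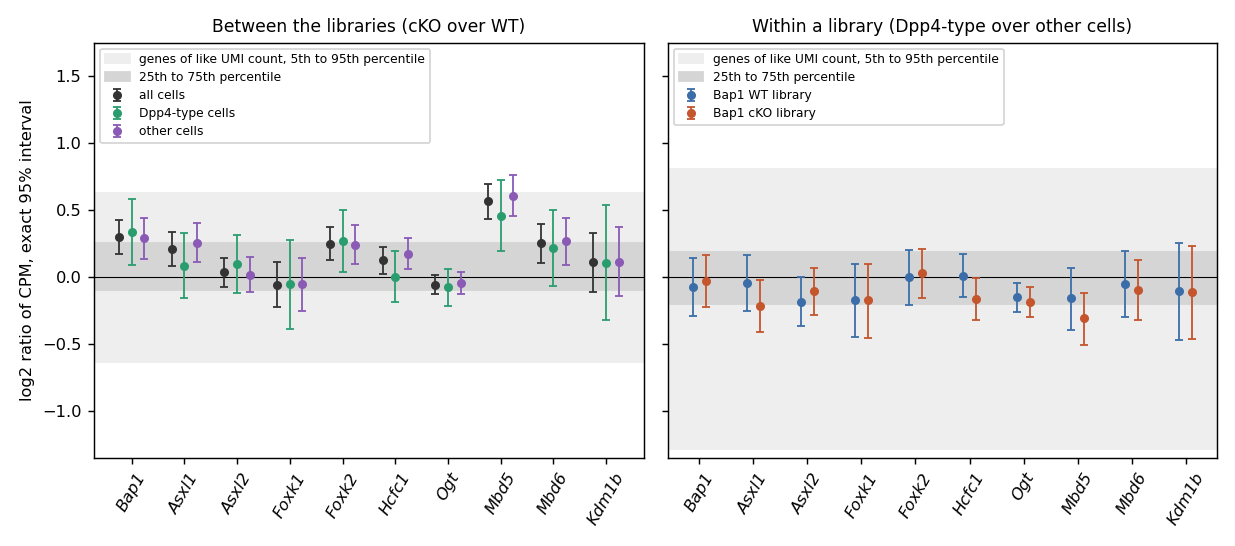
Log2 ratios of CPM with exact 95% intervals for the 10 genes, at left cKO over WT in all, Dpp4-type and other cells and at right Dpp4-type over other cells within each library, where the grey bands give the 5th to 95th and 25th to 75th percentiles of genes of like UMI count (all cells at left, WT-labelled library at right). Mbd5 sits highest at left (0.56 over all cells) but inside the wide band, and at right the 10 genes lie between −0.31 and 0.03.

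Within each library, the members differed little between Dpp4-type and other cells. By point values, 8 of the 10 were lower in Dpp4-type than in other cells in both libraries, with *Foxk2* and *Hcfc1* as exceptions. The same held for 42.3% of 13199 genes and 39.4% of the 6195 genes of like UMI count. Under the alternatives, members above 1 numbered 1 to 3 in the WT-labelled and 0 to 2 in the cKO-labelled library. *Bap1* was above 1 in the cKO-labelled library under TMM scaling, at 1.02 (0.894 to 1.17). At a gate of 15, *Mbd6* was at a log2 ratio of 0.12 in the WT-labelled library. All differences were small, and no member was past 1.5-fold in either library, where 17.4% and 19.1% of genes were lower and 10.4% and 9.15% higher. Among genes of like UMI count, 10.4% and 11.1% were lower and 7.61% and 6.7% higher. *Ogt* was at 62.1 CPM in Dpp4-type and 69.1 CPM in other cells of the WT-labelled library, a ratio of 0.899 (0.832 to 0.972). In the cKO-labelled library it was at 58.8 and 67.0 CPM, a ratio of 0.878 (0.811 to 0.95). *Ogt* was the one member below 1 beyond counting error in both libraries, and it stayed so under TMM scaling, at 0.916 (0.848 to 0.990) and 0.917 (0.847 to 0.992).

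*Asxl2* was at 23.7 CPM in Dpp4-type and 26.9 CPM in other cells of the WT-labelled library (ratio 0.880, 0.775 to 0.997), and together with *Ogt* it made 2 members with an interval below 1 there, against 27.2% of genes. In the cKO-labelled library its ratio of 0.929 (0.822 to 1.05) included 1. In the cKO-labelled library, 4 members were below 1 beyond counting error, against 30.6% of genes. Besides *Ogt* these were *Mbd5* at 0.807 (0.705 to 0.922), *Asxl1* at 0.860 (0.751 to 0.984) and *Hcfc1* at 0.894 (0.802 to 0.995). Under TMM scaling the intervals of *Asxl2* in the WT-labelled library, 0.897 (0.790 to 1.02), and of *Asxl1*, 0.898 (0.784 to 1.03), and *Hcfc1*, 0.933 (0.837 to 1.04), in the cKO-labelled library included 1, while *Mbd5* stayed below it at 0.842 (0.736 to 0.962). *Bap1* itself was level between the kinds of cell by this split, with ratios of 0.95 (0.815 to 1.10) and 0.980 (0.856 to 1.12). When cells were split by a UMI of *Dpp4* itself, its log2 ratio in the WT-labelled library was −0.28, against −0.07 by the 4 genes. The other alternatives gave −0.08 to −0.03 in that library.

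Transcripts of the complex were found in a minority of cells at this depth, apart from *Ogt* in the WT-labelled library. As deposited, *Bap1* had a UMI in 19.3% of cells of the WT-labelled library and 21.8% of those of the cKO-labelled library. The shares were 20.7% and 21.5% for *Asxl1*, 26.0% and 24.6% for *Asxl2*, 13.4% and 12% for *Foxk1* and 21.3% and 22.7% for *Foxk2*. They were 31.0% and 30.8% for *Hcfc1*, 50.6% and 45.0% for *Ogt*, 17.2% and 22.6% for *Mbd5*, 15.8% and 16.7% for *Mbd6* and 7.77% and 7.47% for *Kdm1b*. These shares carry the difference in depth between the libraries, so each cell was also thinned to 5000 UMIs, which left out 120 and 210 shallower cells.

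In thinned cells *Bap1* had a UMI in 7.86% (7.04 to 8.74) of 3983 cells and in 10.2% (9.32 to 11.2) of 4168 cells. *Mbd5* had one in 7.53% (6.73 to 8.40) and 11.1% (10.1 to 12.1), and *Mbd6* in 6.40% (5.66 to 7.21) and 8.13% (7.32 to 9.0). For these 3 members the intervals of the libraries did not overlap. *Foxk1* went the other way, with 6.35% (5.61 to 7.15) and 4.82% (4.19 to 5.52), and its intervals did not overlap either, whereas its CPM differed within counting error; no order is read from it. The share of all genes that separate in this way was not measured, so the number of separate members is not read as a result. Which genes separated depended on the depth of thinning. At 8000 UMIs, with 3544 and 3435 cells, *Bap1* (13.6% and 15.8%) and *Foxk1* (8.58% and 8.27%) overlapped, *Mbd5* (11.9% and 16.4%) and *Mbd6* (10.1% and 12.8%) were still separate, and *Foxk2* (14.1% and 17.8%) and *Ogt* (39.6% and 35.9%) separated too. The shares of *Asxl1* (9.44% and 10.7%), *Asxl2* (11.2% and 12.8%), *Foxk2* (9.36% and 10.7%), *Hcfc1* (15% and 16.3%), *Ogt* (27.5% and 25.8%) and *Kdm1b* (2.84% and 3.67%) had overlapping intervals. These cells hold no cell type that lacks the complex, so the share that free RNA would give could not be measured.

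**Figure D3:**
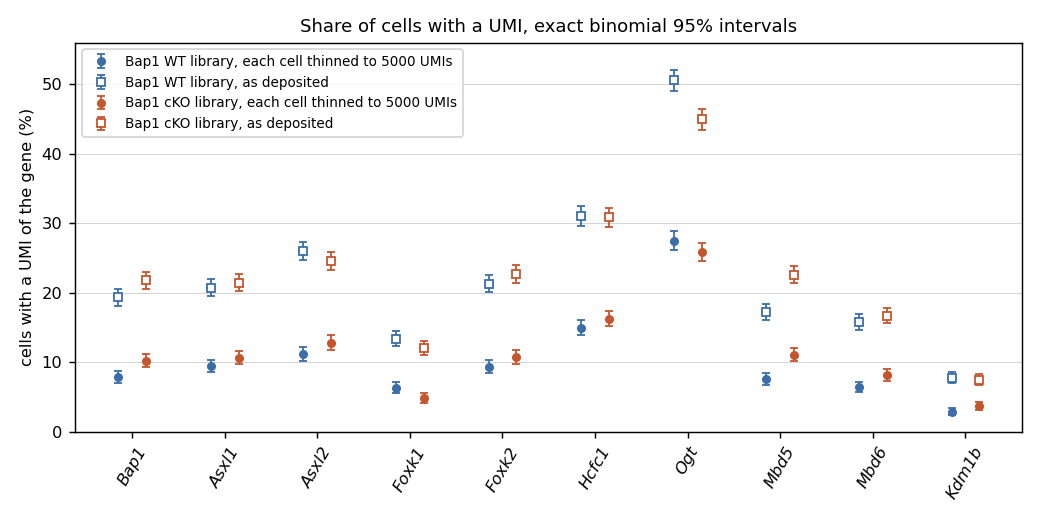
Percent of cells with at least 1 UMI of each gene, in blue for the WT-labelled library and in orange for the cKO-labelled library, with open squares for the cells as deposited, filled circles for cells thinned to 5000 UMIs and bars for exact binomial 95% intervals. Thinning lowers every share and turns Asxl2, Hcfc1 and Kdm1b from slightly lower to slightly higher in the cKO library. At 8000 UMIs, not drawn, Kdm1b was lower in it again (5.42% and 5.12%). Bap1, Asxl1, Foxk2, Mbd5 and Mbd6 are higher in the cKO library both ways.

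The number of cells with 2 or more UMIs was set beside the number that each cell carrying the same share would give. For *Bap1*, 92 cells of the WT-labelled library had 2 or more UMIs against 91.4 given by an even level, and 109 of the cKO-labelled library against 121. The counts for *Mbd5* were 95 against 75.5 and 144 against 140. Both ASXL genes had more such cells than an even level gives in both libraries, *Asxl1* with 126 against 109 and 149 against 129 and *Asxl2* with 224 against 184 and 199 against 175. The same held for *Foxk2*, *Hcfc1*, *Ogt*, *Mbd5* and *Kdm1b*, so it was not particular to the ASXL genes. It did not hold in both libraries for *Bap1*, *Foxk1* and *Mbd6*. No interval and no share of all genes was taken for these counts. *Ogt* had a UMI in 0.920 and 0.895 times as many cells as an even level would give, the lowest of the members in both libraries.

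In thinned cells, 2 or more members were counted in 27.9% of cells of the WT-labelled library and in 31.4% of the cKO-labelled library. The mean number of members with a UMI was 1.03 in the WT-labelled library and 1.14 in the cKO-labelled library. No member had one in 33.7% (32.2 to 35.2) and 29.1% (27.7 to 30.5) of cells. As deposited, with the difference in depth, that share was 9.41% and 9.75%, the other way round. Other sets of genes were not measured in this way. *Ogt* and *Bap1* shared 97 cells where the product of their shares gives 86.0, and 117 where it gives 110. *Asxl1* and *Bap1* shared 31 where the product gives 29.5, and 33 where it gives 45.4, and *Asxl2* and *Bap1* shared 30 against 35.0 and 66 against 54.6. Departures from the product thus went both ways between the libraries for these ASXL genes, and for *Foxk2*, *Mbd5* and *Mbd6*. *Foxk1* and *Kdm1b* were above the product in both libraries. *Hcfc1* was below it in both, at 38 against 46.9 and 66 against 69.3. Neither an interval nor a share of all genes was taken for shared cells, so no pairing of genes is read from them.

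Finer kinds of FAP were taken by marker levels, as separate gates of at least 50 cells in a library, which gave 12 points over both libraries. Apart from Dpp4-type cells these were Cxcl14-type cells (5 genes, 25 or more UMIs per 10000) and gates at 10 or more UMIs per 10000 for cycling, tendon-type, *Spon1*, *Hmcn1* and *Fmo2* genes, with the remaining cells as a last group. In the order of its levels, *Bap1* ran from 14.7 CPM (7.83 to 25.1) in tendon-type cells of the WT-labelled library to 24.3 CPM (15.7 to 35.9) in cycling cells of the cKO-labelled library. These 2 ends, both small gates, overlap, and adjacent points in this order do not differ beyond counting error. Among the gates with over 500 cells, *Bap1* in the WT-labelled library was at 15.9 CPM (14.1 to 17.8) in the remaining cells. It was at 16.8 CPM (14.7 to 19.1) in Dpp4-type and 20.6 CPM (18.4 to 22.9) in Cxcl14-type cells. The intervals of the remaining and Cxcl14-type cells there did not overlap. In the cKO-labelled library the same gates were at 20.8, 21.4 and 23.0 CPM. The lowest and highest of these 6 points differed 1.45-fold.

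For *Ogt*, *Asxl1*, *Foxk1*, *Mbd5* and *Mbd6* the lowest and highest of the 12 points did not overlap. These ends were taken by their levels, partly across the libraries. The share of all genes with such ends was not measured, so the number of these members is not read as a result. *Ogt* was highest in Cxcl14-type cells in both libraries, at 80.2 CPM (75.9 to 84.8) and 74.3 CPM (69.3 to 79.5), and lowest in cycling cells of the cKO-labelled library, at 41.8 CPM (30.2 to 56.3). The remaining cells, at 61.9 CPM (58.3 to 65.7) and 65.1 CPM (61.4 to 69.0), overlapped Dpp4-type cells, at 62.4 CPM (58.3 to 66.7) and 59.3 CPM (55.4 to 63.4). A lower level than in Cxcl14-type cells was thus not particular to Dpp4-type cells. *Asxl1* was highest in those cycling cells, at 38.9 CPM (27.8 to 52.9) from 40 UMIs in 76 cells, above Dpp4-type cells of the WT-labelled library at 18.7 CPM (16.5 to 21.1). *Foxk1* had 3 UMIs in the cycling cells, or 2.92 CPM (0.601 to 8.52), and 21.7 CPM (12.1 to 35.7) in the *Hmcn1* gate of the WT-labelled library. *Mbd5* ran from 12.6 CPM (6.73 to 21.6) in cycling cells to 30.5 CPM (24.5 to 37.5) in the *Spon1* gate, both of the cKO-labelled library. *Mbd6* had 5 UMIs in tendon-type cells of the WT-labelled library, or 5.65 CPM (1.84 to 13.2). It was at 21.4 CPM (13.4 to 32.4) in cycling cells of the cKO-labelled library. The cycling gate had 42 cells and the *Spon1* gate 6 cells in the WT-labelled library, too few for a point, so these ends rest on 1 library.

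**Figure D4:**
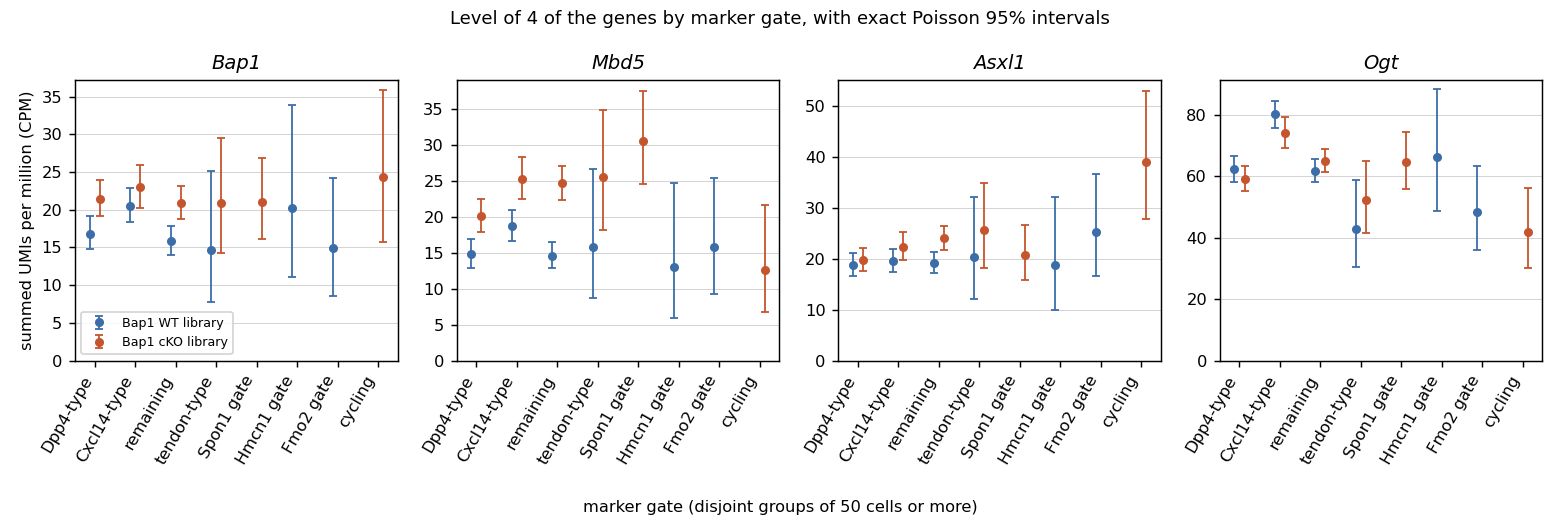
CPM of Bap1, Mbd5, Asxl1 and Ogt in each marker gate with 50 or more cells, in blue for the WT-labelled library and in orange for the cKO-labelled library, with exact Poisson 95% intervals and axes that start at 0. Mbd5 is higher in the cKO library in all 4 gates that both libraries fill, and Ogt is highest in Cxcl14-type cells of both.

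Within the 4 gates that both libraries fill, the ratio of *Mbd5* was 1.36 (1.13 to 1.63) in Dpp4-type, 1.35 (1.14 to 1.59) in Cxcl14-type, 1.69 (1.45 to 1.98) in the remaining and 1.61 (0.856 to 3.21) in tendon-type cells. *Bap1* had 1.27 (1.07 to 1.52), 1.12 (0.947 to 1.32), 1.31 (1.12 to 1.54) and 1.42 (0.727 to 2.96) in the same order. *Mbd5* was thus higher in the cKO-labelled library beyond counting error in the 3 large gates, and *Bap1* in 2 of them. Depth per cell also differed between the libraries, so the ratios were taken within bins of cell depth, chosen after the data were seen. In cells under 9000, of 9000 to 13000 and over 13000 UMIs, *Mbd5* had ratios of 1.47, 1.42 and 1.48, all with intervals above 1. *Bap1* had 1.23 (0.968 to 1.57), 1.12 (0.966 to 1.31) and 1.30 (1.14 to 1.48). *Asxl1* had 1.02 (0.817 to 1.28), 1.09 (0.942 to 1.27) and 1.24 (1.09 to 1.40), above 1 beyond counting error in the deepest bin alone. *Foxk2* had 1.09 (0.864 to 1.37), 1.24 (1.07 to 1.44) and 1.18 (1.05 to 1.33), with 1 included in the shallowest bin. *Ogt* had 0.833 (0.738 to 0.940), 0.889 (0.822 to 0.961) and 1.02 (0.949 to 1.10). Its intervals lay below 1 in both shallower bins and included 1 in the deepest, and the difference between bins was not tested.

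The pattern of *Bap1* over the 12 points was most like that of *Arpc5l*, which encodes a subunit of the actin-nucleating Arp2/3 complex (Pearson r 0.97), *Emc7*, of the endoplasmic reticulum membrane complex (0.96), and *Tomm20*, of the mitochondrial import receptor (0.95), among 9740 genes with 500 or more UMIs. Of the partners, *Mbd6* came nearest, at 0.83 and rank 463, followed by *Foxk2* at 0.66 and rank 1980. *Foxk1* was at −0.02 and rank 7441. These are descriptions over points that share libraries and rest on few UMIs in the small gates.

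Around the complex, 4 lists of related genes were followed over all cells against the same 12.8% higher and 10.8% lower. Of 23 genes of Polycomb repressive complex 1, which writes the mark that BAP1 removes, 1 was higher and 1 lower past 1.5-fold, with a median log2 ratio of 0.03. *Pcgf5*, a RING finger subunit that sets the type of complex, was at 10.4 and 16.1 CPM, a ratio of 1.54 (1.38 to 1.73), which TMM scaling brought under 1.5-fold at 1.44 (1.29 to 1.61). *Cbx7*, a chromodomain reader, was at 4.67 and 3.03 CPM, a ratio of 0.649 (0.526 to 0.800). Of 11 other H2A deubiquitinases, UCH enzymes and *Asxl3*, 1 was higher and 1 lower, with a median of 0.10. *Uchl1*, a ubiquitin hydrolase of the same family as BAP1 and best known from neurons, was at 69.4 CPM (3541 UMIs) and 160 CPM (7904 UMIs), a ratio of 2.30 (2.21 to 2.39), with log2 ratios of 1.06 in Dpp4-type and 1.33 in other cells. The lower one, *Asxl3*, is named because the count is 1: it had 47 and 28 UMIs.

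Of 32 genes for partners of HCFC1, OGT, KDM1B and BAP1, 2 were higher and 0 lower past 1.5-fold, with a median of 0.05. *Brca1*, a DNA repair gene whose protein gave BAP1 its name, had 38 and 77 UMIs, a ratio of 2.09 (1.40 to 3.16). *Bard1*, which encodes the partner of BRCA1 and is named because the count is 2, had 27 and 40 UMIs, a ratio of 1.53 (0.913 to 2.59) that fell under 1.5-fold with TMM scaling, at 1.43 (0.853 to 2.42). *Mgea5*, the gene of the enzyme that takes off the sugar OGT adds, was at 36.2 and 39.5 CPM, a ratio of 1.09 (1.02 to 1.16).

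Of 5 genes whose proteins have been described as substrates of BAP1, 1 was higher and 1 lower, with a median of 0.23. *Itpr3*, a calcium release channel, was at 6.84 and 12.4 CPM, a ratio of 1.81 (1.58 to 2.07), with log2 ratios of 0.80 in Dpp4-type and 0.86 in other cells. *Klf5*, a zinc finger transcription factor, was at 44.8 and 22.3 CPM, a ratio of 0.498 (0.463 to 0.535). Its log2 ratio was −0.09 in Dpp4-type and −1.01 in other cells. *Smn1*, which encodes the survival of motor neuron protein, was level at 23.8 CPM (1216 UMIs) and 24.2 CPM (1199 UMIs), a ratio of 1.02 (0.937 to 1.10). Counts of mRNA carry no information on the stability of these proteins.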

How the data were processed

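Single-cell RNA-Seq was done with 10x Genomics 3′ chemistry on sorted FAPs, 1 library per genotype. Per the labels and methods, reads were aligned to mm10 with Cell Ranger 3.1.0, and Seurat 3.2.1 in R 3.6.1 served to drop doublets, poor cells and cells other than FAPs. The authors deposited raw UMI counts for every gene in every cell. No further cells or doublets were removed here.

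UMI counts were summed over cells and scaled to the total of those cells (CPM). Ratios carry exact 95% intervals given the summed UMIs of both libraries. The interval of the difference of 2 log2 ratios was approximated from the UMI counts. Ratios of all genes with 20 or more UMIs served as background, with folds of 1.5 and, from the study's methods, 3. Thinning to 5000 UMIs per cell used a fixed seed. Gene positions and the printed sequence came from GENCODE M21 (GRCm38). The 10 genes, the related lists, the gates and the markers were chosen with earlier results of these data known. Named genes are the 10, list genes past 1.5-fold with 100 or more UMIs, and the 3 genes most like *Bap1*. *Smn1*, *Mgea5*, *Asxl3* and *Bard1* were added after their values were seen, as were the sex-linked genes. The ratios were tested on simulated Poisson counts without variation between libraries, in genes of 100 or more UMIs changed 2-fold up or down. Past 1.5-fold, 200 of 200 changed genes were recovered among 14725 genes over all cells, and 199 of 200 among 12507 in Dpp4-type cells. Intervals covered the simulated ratio for 9 and 10 of the 10 members. Ratios as small as those of the members were not simulated as changes, so recovery does not bear on them. Alternatives covered scaling, weighting of cells, deepest cells, cycling cells, shared barcodes, gates, thinning, minimum UMIs and fold. Python 3.11.15, scipy 1.17.1, R 4.3.3 and edgeR 4.0.16 (TMM factors alone, no test) were used. Bulk data of the study were not analysed here.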

Additional observations from a re-analysis of the deposited data

Results flagged for a closer look

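For 2 members the log2 ratio of Dpp4-type over other cells had opposite signs in the libraries, and neither difference was tested. *Foxk2* was at −0.0032 in the WT-labelled library and 0.028 in the cKO-labelled library, both within counting error of 0. *Hcfc1* was at 0.011 (ratio 1.01, 0.901 to 1.12) in the WT-labelled library and −0.16 (ratio 0.894, 0.802 to 0.995) in the cKO-labelled library.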

How the results depend on the processing

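Of the log2 ratios of the 10 genes under the alternatives, 449 stayed within counting error of the reported value and 11 moved beyond it, of which *Ogt* over all cells (−0.06 as reported) also changed sign, to 0.03 in the deepest cells. The count of members higher over 1.5-fold over all cells, 0 as reported, was 1 when mitochondrial and ribosomal protein genes were left out of the total and 2 at 1.2-fold. *Bap1*, at a log2 ratio of 0.30 over all cells, came to 0.17 in cells of 9000 to 13000 UMIs, a bin chosen after the data were seen. In cells under 9000 UMIs *Asxl1* came to 0.03 from 0.21, *Foxk2* to 0.12 from 0.25 and *Foxk1* to −0.33 from −0.06. *Ogt* moved most often, to −0.15 over all cells under TMM scaling and to −0.26, −0.17 and 0.03 in the 3 bins of cell depth. With a Dpp4-type gate of 50 UMIs per 10000 it came to −0.23 between the libraries in Dpp4-type cells and to −0.39 for Dpp4-type over other cells in the cKO-labelled library. *Mbd5* was no longer past 1.5-fold in other cells under TMM scaling, at 1.41. Of the related lists, Polycomb genes past 1.5-fold went from 2 to 1 under TMM scaling and in cells under 9000 UMIs and to 4 in cells of 9000 to 13000. Deubiquitinase genes went from 2 to 1 in cells under 9000 UMIs and at a minimum of 100 UMIs. Partner genes went from 2 to 1 under TMM scaling, without the deepest cells, without shared barcodes, in cells over 13000 UMIs and at 100 UMIs, and to 0 in cells under 9000 UMIs. Genes past 1.5-fold over all cells were 1888 higher and 1589 lower by total, 1548 and 1891 by TMM, and together 2186 with 100 or more UMIs and 7419 with 1 or more. All 40 shares moved with the thinning depth. No paired analysis was possible because there is a single library for a genotype, so that no test was run. With 335 to 3426 UMIs per member and library, counting error spans from 0.916 to 1.01 for *Ogt* to 0.926 to 1.26 for *Kdm1b*. Variation between mice was not measured.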
